A study of Mus musculus with 8 samples.

Results

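The cytosolic ribosomal protein genes were taken from RNA-seq tables of early B cell populations as the rows whose symbol begins with Rpl or Rps and a digit, without Rpl29, the Rps6k kinases and symbols ending in -ps (named pseudogenes), at 1 FPKM or more in at least 2 libraries. FPKM counts a gene's sequenced fragments scaled by its transcript length and by the library's depth, so it is a level relative to all the RNA sequenced. Of 52550 rows, 363 symbols began this way. Removing 265 -ps symbols, 10 Rps6k symbols and Rpl29 left 87, and 84 of these met the level rule. Rpl10l and Rps12l1 were at 0 in every library, and Rpl39l reached 1 FPKM in 1 library.

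Cells were sorted from the bone marrow of C57BL/6 mice, either wild type (WT) or lactoferrin knockout (Lf-/-). The 2 stages were sorted by surface markers, with B220+CD43+IgM- marking the pro-B stage. There were 7 libraries: WT pre-pro-B (n = 2), Lf-/- pre-pro-B (n = 2), WT pro-B (n = 1) and Lf-/- pro-B (n = 2). WT pro-B replicate 2 was not analysed here. The mice received no treatment that the labels name, their ages were not given, and the methods speak of 3 mice per group where the labels name 2.

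Ribosomal proteins assemble with ribosomal RNA into the large (Rpl) and small (Rps) subunits of the cytosolic ribosome, the machine that translates messenger RNA. Most mouse ribosomal proteins come from 1 functional gene, and the genome holds many processed pseudogenes copied from these messages. Their messages belong to the terminal oligopyrimidine (TOP) class, which begin with a C followed by a run of C and T and whose translation follows growth signals. A few genes have a paralog, such as Rpl22 and Rpl22l1, and Rpl22 is needed for early lymphocyte development in mice.

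The symbol rule took in more than ribosomal proteins. Of the 84 rows, 72 were canonical genes (42 large, 30 small), 7 were paralogs or other genes and 5 were annotated as pseudogenes despite their symbols (Rps4l, Rpl37rt, Rps3a2, Rps3a3 and Rpl6l). Rps19bp1 encodes a protein that binds Rps19 and is no subunit protein. Where the text says canonical genes, it means the 72.

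The libraries differed in ways that touch every value below. Lf-/- pre-pro-B replicate 2 had 12172 genes above 0 against 19477 to 20250 in the others. Depths inferred from the steps of low values were about 11000000 to 16000000 fragments in the other 6, each from 1501 to 1961 genes, and about 18000000 in this library, from only 410 genes. Ltf, the deleted gene, was at 2143 to 2731 FPKM in the WT libraries and at 88.2 to 168.0 in the Lf-/- libraries. Neutrophil granule genes took 27.9 to 55.9% of the summed FPKM and early B lineage markers 0.029 to 0.441%. The share of these markers does not measure all the RNA of B lineage cells. It was higher in all 4 Lf-/- libraries than in the 3 WT libraries. Its part in the ribosomal protein values was not tested. FPKM cannot separate fewer cells of a type from less RNA per cell, and p-values measure only the spread between these samples.

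The start regions were searched for runs of C and T, the letters of the TOP element. The lines give 30 bases set around the longest run of C and T, in capitals, within 50 bases of each RefSeq start site (GRCm38.p6). They read 5′ to 3′ in the direction of transcription. Rps6, Rpl35, Rpl28 and Rps27 were chosen for runs that span the start, and Rps19bp1 for comparison. The longest run of Rps19bp1 began at -39 from the start, so its line lies upstream and does not hold the start site.
Rps6 (chr4:86857349-86857378, minus strand): ggaagtcgggCCTCTTTTTCgtgacgcctc
Rpl35 (chr2:39005115-39005144, minus strand): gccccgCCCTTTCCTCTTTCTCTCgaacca
Rpl28 (chr7:4792952-4792981, plus strand): gcctctcgtgTCTCTCTTTCCgtctccggc
Rps27 (chr3:90213632-90213661, minus strand): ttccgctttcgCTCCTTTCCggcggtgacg
Rps19bp1 (chr15:80264327-80264356, minus strand): tcctgctccagTTTCTgccgaggagcgaac
A start sequence was found for 54 of the 72 canonical genes. Within 50 bases on either side of the start, 87.0% of them had a run of at least 8 C or T on the transcribed strand, against 39.3% of all 27025 genes with such a sequence and 36.4% of the 6904 at 1 FPKM or more in at least 2 libraries. The letters CTTTCC, on either strand and often within such a run, were in 35.2% against 10.3% of all genes and 10.1% of those 6904. CCGGAAG, the core of an ETS factor motif, was in 24.1% against 5.98 and 14.9%, the second for expressed genes. The TATA box letters TATAAA were in 5.56% against 5.77 and 3.48%. These are matches of letters and no measurement of binding, and a counted run need not begin at the first transcribed base.

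Several members may be hard to tell apart by their reads, since their coding sequences are identical or nearly so. Sequences of coding members outside the coding part were not compared. Rps27 (ENSMUSG00000090733, chr3:90212522-90213651, minus strand), which encodes a small subunit zinc finger protein, and its retrotransposed copy Rps27rt (ENSMUSG00000050621, chr9:114982366-114982739, minus strand) had identical coding sequences over all 255 bases in GENCODE M21 (GRCm38). The paralog Rps27l (ENSMUSG00000036781, chr9:66946086-66949516, plus strand), a p53 target, differed at 61 of 255 bases. The first line below is the coding sequence of Rps27 and of Rps27rt, and capitals in the second mark the bases at which Rps27l differs.
Rps27 and Rps27rt: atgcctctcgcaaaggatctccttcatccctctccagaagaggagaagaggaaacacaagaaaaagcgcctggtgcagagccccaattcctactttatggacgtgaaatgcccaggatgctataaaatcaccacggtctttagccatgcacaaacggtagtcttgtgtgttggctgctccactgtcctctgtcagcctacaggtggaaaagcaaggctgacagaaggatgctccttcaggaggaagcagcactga
Rps27l: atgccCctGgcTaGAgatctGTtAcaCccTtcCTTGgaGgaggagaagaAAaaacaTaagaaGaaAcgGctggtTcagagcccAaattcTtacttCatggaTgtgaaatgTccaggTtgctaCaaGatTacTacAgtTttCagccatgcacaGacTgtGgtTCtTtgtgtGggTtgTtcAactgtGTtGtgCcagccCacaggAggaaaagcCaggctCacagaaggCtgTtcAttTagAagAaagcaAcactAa
Most pseudogene rows were nearly as close to a parent gene. Rps3a2 was 99.5% and Rps3a3 98.9% identical to the coding sequence of Rps3a1, Rpl37rt was 99.7% identical to Rpl37, and Rpl6l was 98.7% identical to Rpl6. Rps4l was further from Rps4x at 79.6%.

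Rpl36a (ENSMUSG00000079435, chrX:134585654-134588062, plus strand) and its paralog Rpl36al (ENSMUSG00000049751, chr12:69182731-69184083, minus strand) encode nearly the same large subunit protein. Their coding sequences differed at 39 of 321 bases, so that many reads can be placed. The first 150 bases of each are shown, with the bases at which Rpl36al differs in capitals.
Rpl36a: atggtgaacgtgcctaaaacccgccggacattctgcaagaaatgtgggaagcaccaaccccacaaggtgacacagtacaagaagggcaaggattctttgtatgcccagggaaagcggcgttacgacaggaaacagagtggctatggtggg
Rpl36al: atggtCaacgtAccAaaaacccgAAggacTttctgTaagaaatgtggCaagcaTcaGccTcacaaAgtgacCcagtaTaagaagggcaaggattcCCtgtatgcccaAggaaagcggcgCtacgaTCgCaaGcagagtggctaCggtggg

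Ribosomal protein genes were among the most abundant messages in every library, although levels differed widely from gene to gene. The median canonical gene was at 115 to 147 FPKM across the 7 libraries, above 95.6 to 96.5% of all genes at 1 FPKM or more in at least 2 libraries. Together the 84 rows made up 1.85 and 2.03% of the summed FPKM at the pre-pro-B stage in WT mice, against 1.76 and 1.91% without lactoferrin. At the pro-B stage the share was 1.71% in the WT library, against 1.85 and 2.38%. The WT and Lf-/- ranges overlapped at the pre-pro-B stage and over both stages, while at the pro-B stage both Lf-/- values lay above the WT value. An exact permutation test of 2 against 2 samples cannot give a p below 0.333, so this share was not tested.

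Rpl32 at 415 to 842 FPKM and Rpl36 at 458 to 787, both large subunit genes, were among the 3 highest. Rpl22 was the lowest canonical gene at 8.27 to 13.2 FPKM. The lowest rows of the 84 were Rps3a3 at 6.25 to 12.9 and Rpl3l at 0.470 to 3.45. Rpl3l, the muscle paralog of Rpl3, was the only row under 1 FPKM in any library, and it reached 1 FPKM in 5 of 7. Among WT libraries only pre-pro-B replicate 2 did so (1.12), so Rpl3l met the level rule only through the Lf-/- libraries. Its higher Lf-/- values below are therefore partly set by that rule. The median canonical small subunit gene had a mean of 193 FPKM and the median large subunit gene 98.7, and the small subunit median was higher in each of the 7 libraries.

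**Figure D1:**
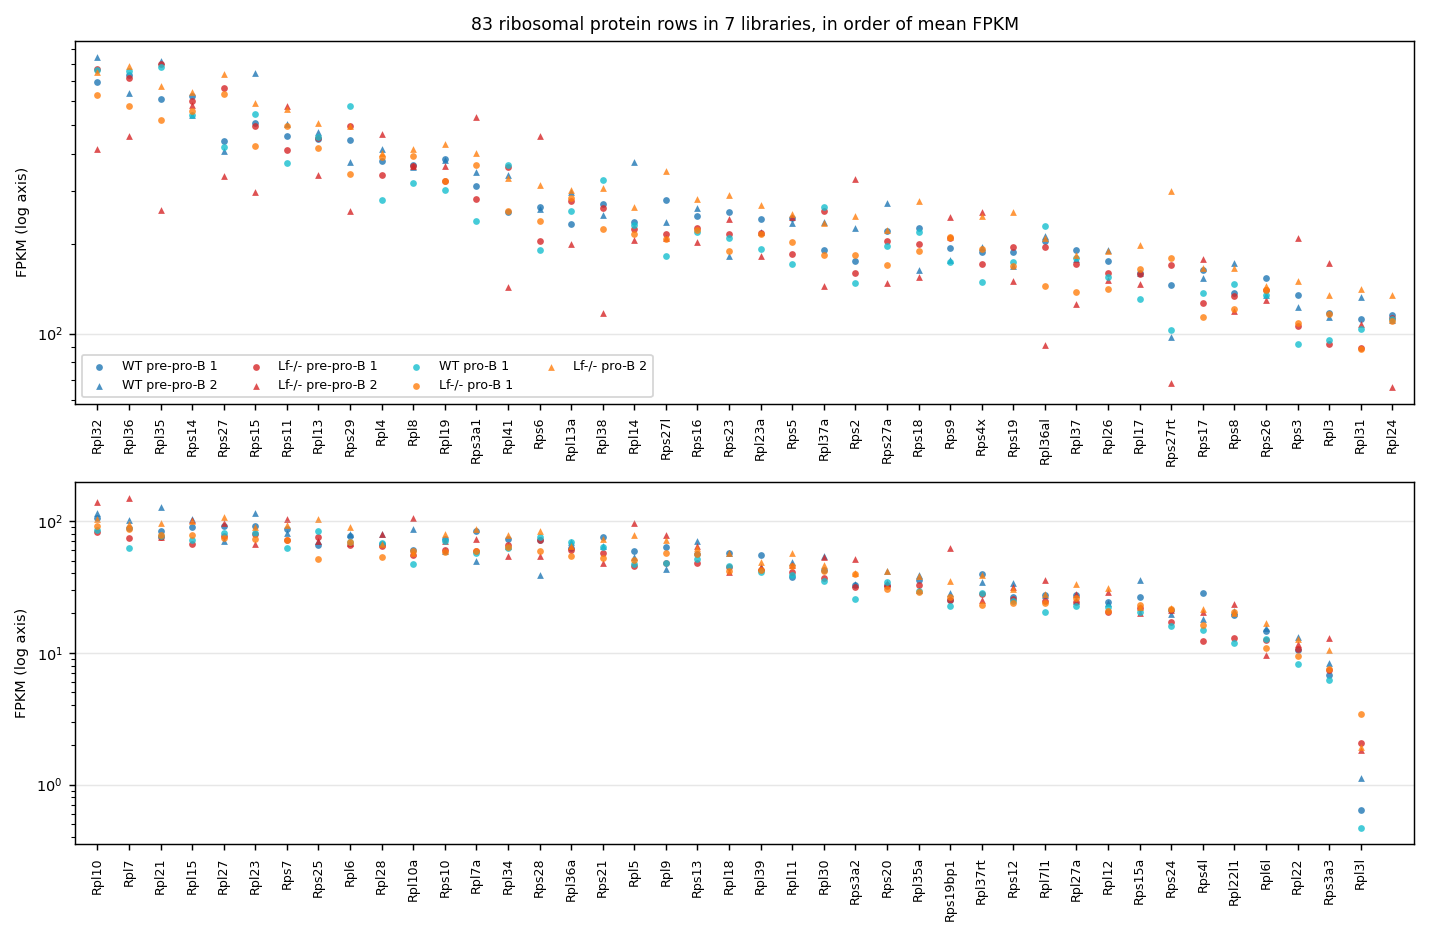
FPKM (log axis) of 83 of the 84 rows in the 7 libraries, ordered by mean from left to right and top to bottom, with colour for group and marker shape for replicate. Libraries lie close together for most genes while the range falls from 415 to 842 FPKM in Rpl32 to 8.27 to 13.2 in Rpl22, and Lf-/- pre-pro-B replicate 2 (red triangles) is often the highest or lowest point.

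The order of the genes was nearly the same in each library. Spearman's rho of canonical levels between pairs of libraries, a description over 72 genes that share each library's depth, was 0.889 to 0.994, and at least 0.968 without Lf-/- pre-pro-B replicate 2. The median coefficient of variation over 7 libraries was 17.1% for canonical genes and 32.8% for the 3153 other genes with a mean of at least 10 FPKM. Of the 72 genes, 55 stayed within 2-fold from the lowest library to the highest. Rps26 varied least (129 to 154 FPKM, coefficient of variation 5.71%), followed by Rps14 (539 to 646, 7.11%), a small subunit protein near the messenger RNA exit. Rps6, the small subunit protein phosphorylated by S6 kinase, varied most (190 to 460, 32.9%), with its highest value in Lf-/- pre-pro-B replicate 2.

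In 3 of the 7 libraries the deviations went with the length of the transcript. Deviations in this paragraph were taken from each gene's own mean over the 7 libraries. The plot of deviation against transcript length takes them from the median instead. The canonical genes' deviations had an SD of 0.43 on the log2 scale in Lf-/- pre-pro-B replicate 2, against 0.13 to 0.24 in the other 6. In Lf-/- pre-pro-B replicate 2 the deviation was higher for longer transcripts (Spearman's rho 0.52 over 72 genes). The 32 canonical genes under 600 bases had a median deviation of -0.24 there and the 40 longer ones 0.09, beside -0.21 and 0.21 for all short and long genes at 1 FPKM or more in at least 2 libraries. WT pro-B replicate 1 and Lf-/- pre-pro-B replicate 1 had the opposite sign (rho -0.56 and -0.51). Each gene's deviations from its mean cancel over the 7 libraries. A strong trend in Lf-/- pre-pro-B replicate 2 therefore partly sets an opposite sign in the others. In WT pre-pro-B replicates 1 and 2 rho was -0.23 and -0.05, and in Lf-/- pro-B replicates 1 and 2 it was 0.26 and -0.10. The part of length in the differences between genotypes was not tested.

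**Figure D2:**
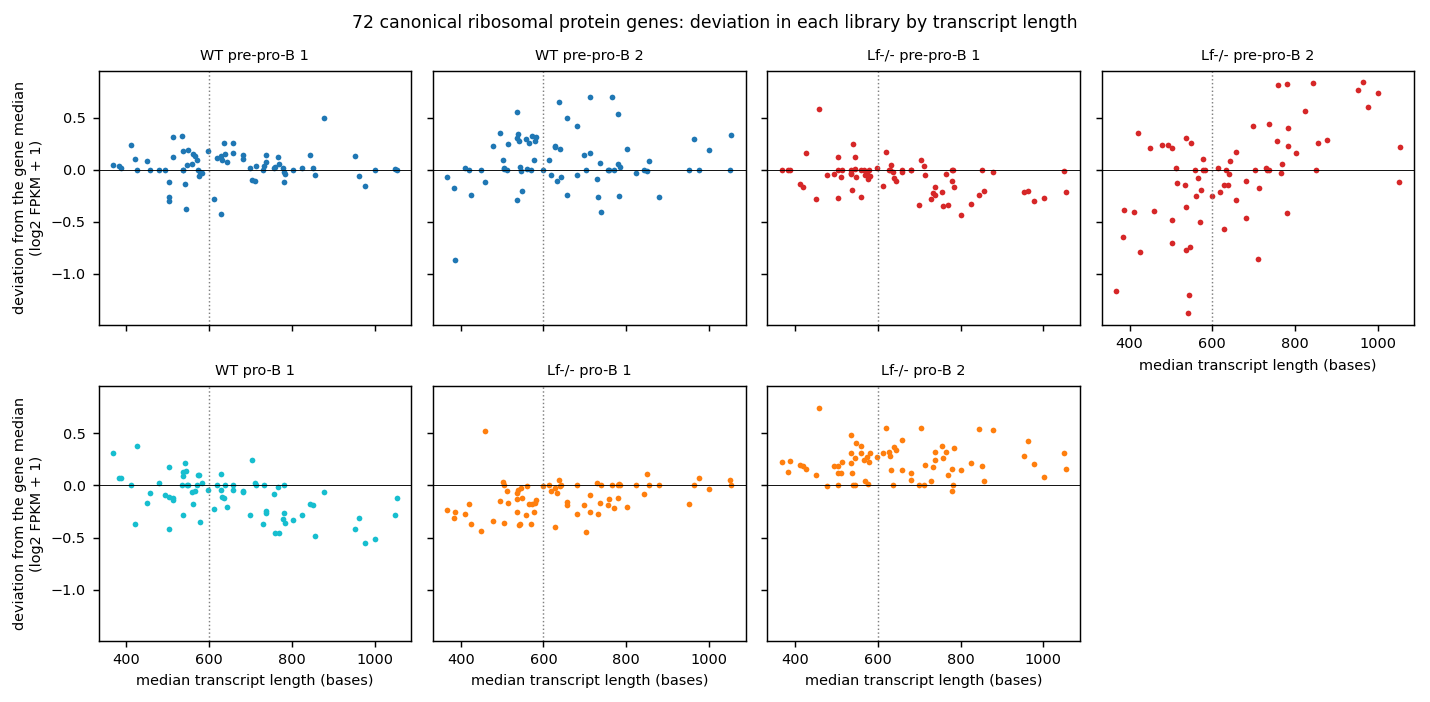
Deviation of each of the 72 canonical genes from its own median over 7 libraries (log2 of FPKM + 1) against its median transcript length in bases, one panel per library, with a dotted line at 600 bases. In Lf-/- pre-pro-B replicate 2 short genes lie low and long genes high, and the single high point at 458 bases in the other 3 Lf-/- libraries is Rps27.

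In pre-pro-B cells, the question was whether loss of lactoferrin moved the ribosomal protein genes, and none passed the test. By limma with Benjamini-Hochberg adjustment over 9720 genes, 0 of 84 rows had an adjusted p under 0.05 (0% of all genes did) and 0 had an unadjusted p under 0.05, where 2.92% of all genes did. The smallest adjusted p among them was 0.941. Ltf, the deleted gene, did not pass either (difference -4.39, limma adjusted p = 0.429). The lack of adjusted calls therefore says little about the members. The median difference, Lf-/- minus WT on log2(FPKM + 1), was -0.12 for the 84 rows and 0.03 for all genes. Of the rows, 56 were lower and 28 higher, where 48.0% of all genes were lower. Scaling that set the median gene ratio equal between libraries gave -0.27 with 71 lower and 13 higher. All genes then had a median of -0.08, with 44.4% higher. Large subunit canonical genes had a median of -0.17 and small subunit genes of -0.06. Without Lf-/- pre-pro-B replicate 2 the median was -0.17 beside -0.10 for all genes, again with 0 rows past either threshold.

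The spread between the Lf-/- replicates limited this comparison. The median absolute difference between replicates was 0.38 for canonical genes in Lf-/- pre-pro-B cells, against 0.19 in WT pre-pro-B cells, and single genes differed by up to 1.62. Both Lf-/- values lay below both WT values for 22 rows (26.2%, where 17.7% of all genes did). These were 15 of 48 large and 7 of 36 small subunit symbols, and 18 of the 22 were canonical genes. Both lay above for Rpl3l and Rps9 (2.38%, where 15.5% of all genes did). Rps9, a small subunit protein that binds early in assembly, was at 193 and 176 FPKM in WT and 210 and 245 in Lf-/- libraries.

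The most negative differences were in 5 genes, and most of them rested on 1 library. Rps15, a small subunit protein of the decoding site, was at 509 and 747 FPKM in WT and 495 and 299 in Lf-/- libraries, a difference of -0.68 ± 0.48 (SE, n = 2 against 2). Rpl36al was at 204 and 213 against 195 and 91.4 (-0.64 ± 0.51). Its Lf-/- replicate 1 lay close to WT and replicate 2 far below. Rpl35, a large subunit protein at the exit tunnel, was at 613 and 816 against 799 and 259 (-0.63 ± 0.64). Rpl38, a large subunit protein known for its part in the translation of Hox messages, was at 272 and 250 against 263 and 117 (-0.57 ± 0.52). Rps15a, a small subunit protein, was at 26.7 and 35.5 against 21.9 and 20.02 (-0.54 ± 0.42), with no overlap between the groups. Adjusted p was 0.941 for all 5 by limma. Without Lf-/- pre-pro-B replicate 2 the difference of Rpl35 became 0.18, that of Rpl38 0.01 and that of Rpl36al -0.09, while Rps15 was at -0.32 and Rps15a at -0.34.

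On the positive side, only Rpl3l and Rps9 did not overlap. Rpl3l was at 0.646 and 1.12 FPKM in WT and 2.08 and 1.83 in Lf-/- libraries (0.66 ± 0.45), and met the level rule only through the latter. Rps9 differed by 0.29 ± 0.40. Rps19bp1 was at 24.96 and 28.5 against 25.4 and 62.7 (0.57 ± 0.55), so its difference lay in 1 library and was -0.07 without it. The pseudogene rows Rps3a3 (0.33 ± 0.48) and Rps3a2 (0.28 ± 0.44) likewise had no excess in Lf-/- replicate 1. Adjusted p by limma was at least 0.941 for each.

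In pro-B cells the 84 rows were lower relative to the bulk of genes than their raw values show. With 1 WT library there was no test, and a gene was counted where the Lf-/- mean was at least 2-fold from WT and both Lf-/- values were on 1 side. This held for 2 of 84 rows, both higher in Lf-/- cells (12.4% of all genes were counted as higher and 1.12% as lower). The median difference was 0.18 for the 84 rows, 0.18 for its large and 0.16 for its small subunit canonical genes and 0.48 for all genes, so that relative to the median gene the rows stood at -0.30. The same median-ratio scaling gave the members a median of -0.42 with 78 of 84 lower. All genes then had a median of 0.04, with 53.8% higher. Quantile normalization gave the members -0.21, beside -0.00097 for all genes. The direction of the group in pro-B cells therefore depended on the scaling.

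The 2 rows were Rpl3l, at 0.470 FPKM in WT and 3.45 and 1.95 in Lf-/- cells, and Rps27rt, at 103 in WT and 179 and 301 in Lf-/- cells. Of these, Rpl3l met the level rule only through Lf-/- libraries. Both Lf-/- values lay above WT for 46 rows (54.8%, where 75.3% of all genes did) and below for 9 (10.7%, where 6.9% of all genes did). The 9 were Rpl28, Rpl32, Rpl35, Rpl36a, Rpl36al, Rpl37a, Rpl38, Rpl41 and Rps29. Of these, 8 carry large subunit symbols, as do 48 of the 84 rows. Rps29, a small subunit zinc finger protein, had the most negative difference, from 578 FPKM in WT to 343 and 495 (-0.49). Rpl35 went from 784 to 518 and 675 (-0.41) and Rpl36al from 229 to 144 and 209 (-0.40). After Rpl3l (1.30) and Rps27rt (1.17), Rpl22l1 had the highest value, from 11.8 FPKM to 20.3 and 20.1 (0.72). When all 7 libraries shared 1 estimate of spread, 0 of 84 rows had an adjusted p under 0.05 by limma, as did 0% of all genes, and 1, Rpl3l, had an unadjusted p under 0.05, where 4.33% of all genes did.

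**Figure D3:**
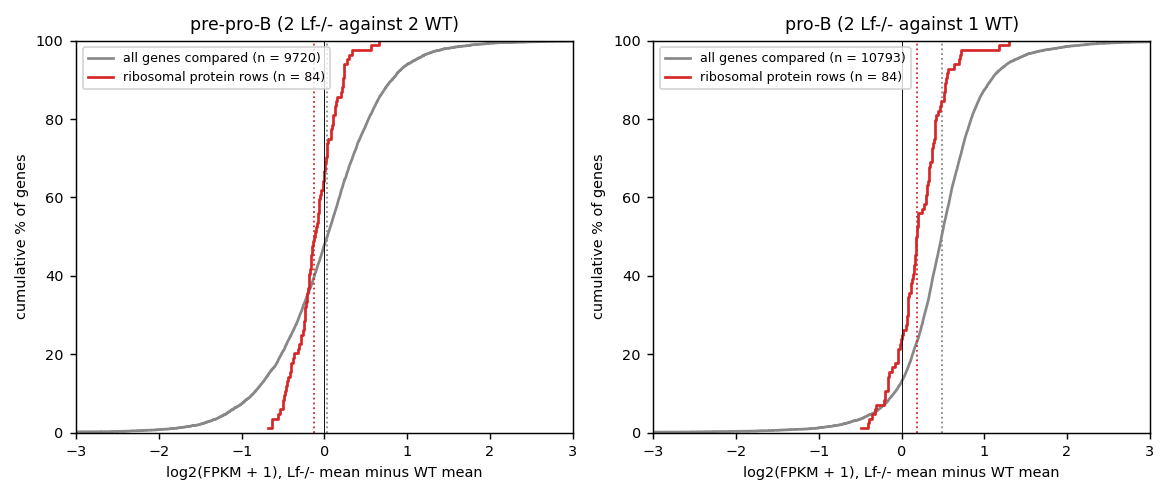
Cumulative percentage of genes by difference, Lf-/- mean minus WT mean of log2(FPKM + 1), for all genes compared (grey) and the 84 rows (red) in pre-pro-B (left) and pro-B cells (right), with medians as dotted lines. The red curve is steeper in both panels, and its median is -0.12 against 0.03 on the left and 0.18 against 0.48 on the right.

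Over both stages, with stage as a term, 0 of 84 rows passed the adjusted threshold by limma (0.185% of all genes did). Of the 84, 42 were higher in Lf-/- cells and 42 lower, with a median difference of -0.01 beside 0.21 for all genes, of which 66.8% were higher. The split turned on the scaling. Median-ratio scaling gave 8 higher and 76 lower, where 46.2% of all genes were higher. Rescaling without the neutrophil granule list gave 20 higher and 64 lower, where 56.6% of all genes were higher. Rpl3l alone had an unadjusted p under 0.05 (difference 0.92 ± 0.32, n = 4 against 3, limma unadjusted p = 0.02, adjusted p = 0.573), where 6.48% of all genes did so as higher and 0.695% as lower. Its 4 Lf-/- values, 1.83 to 3.45 FPKM, lay above its 3 WT values, 0.470 to 1.12. Since Rpl3l met the level rule only through the Lf-/- libraries, this difference and its p are partly set by the selection. At these levels it rested on about 7 to 14 fragments in the WT libraries and 24 to 40 in the 4 Lf-/- libraries by the inferred depths. Rps9 was the other row without overlap (every Lf-/- value above every WT value, 9.87% of all genes). In 0 rows was every Lf-/- value below every WT value (1.13% of all genes).

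Between stages, pro-B minus pre-pro-B cells with genotype as a term, 0 of 84 rows had an adjusted (0.00927% of all genes) or unadjusted p under 0.05 by limma (2.41% of all genes). The median was -0.01 for the rows, 40 of them higher and 44 lower, and -0.03 for all genes, 47.4% of them higher. Median-ratio scaling gave 62 higher and 22 lower, where 56.9% of all genes were higher. Rescaling without the granule list gave 78 and 6, where 66.2% of all genes were higher. The highest differences were Rps27rt (0.58 ± 0.44), Rpl38 (0.48 ± 0.34) and Rpl41 (0.34 ± 0.36), which encodes the shortest ribosomal protein. The lowest were Rpl10a (-0.47 ± 0.32), Rpl7 (-0.37 ± 0.32) and Rps3 (-0.32 ± 0.32), a large subunit pair and a small subunit protein at the messenger RNA entry. Adjusted p was 0.95 for each.

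Whether the genotype difference itself differed between stages could hardly be tested, since 1 of the 4 groups was a single WT pro-B library and the smallest adjusted p over all 10793 genes was 0.983. In this interaction test, by limma, 0 of 84 rows had an adjusted (0% of all genes) or unadjusted p under 0.05 (2.74% of all genes). In 7 rows (Rpl19, Rps27l, Rps16, Rpl23a, Rpl17, Rpl21 and Rps15a) both Lf-/- values were below both WT values in pre-pro-B cells and above the WT value in pro-B cells (8.33%, where 11.1% of all genes did so), and the smallest adjusted p in this test over all 84 rows was 0.99.

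For 5 members with a special role, the genotypes overlapped over both stages, while at the pro-B stage both Lf-/- values lay above WT for each, as they did for 75.3% of all genes. Rpl5 and Rpl11, which bind MDM2 when ribosome assembly fails, were at 45.3 to 96.6 and 37.6 to 57.2 FPKM. Rps3 was at 92.1 to 209 and Rps6 at 190 to 460. In Rpl5, Rps3 and Rps6 the highest value was in Lf-/- pre-pro-B replicate 2, whereas Rpl11 was highest in Lf-/- pro-B replicate 2. Rps14 was at 625 and 542 FPKM (WT) against 602 and 584 (Lf-/-) at the pre-pro-B stage, and at 539 against 555 and 646 at the pro-B stage.

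Rps27 stood out among canonical genes in the Lf-/- libraries, a feature chosen after its values were seen and given with no test. It was at 443 and 409 FPKM (WT) against 663 and 336 (Lf-/-) at the pre-pro-B stage. At the pro-B stage it was at 421 against 635 and 741. Of 72 canonical genes it had the largest upward deviation from its own median in Lf-/- pre-pro-B replicate 1 (0.58), Lf-/- pro-B replicate 1 (0.52) and Lf-/- pro-B replicate 2 (0.74), where the next gene reached 0.24, 0.11 and 0.55. In Lf-/- pre-pro-B replicate 2 it ranked 57. Relative to the median canonical gene under 600 bases in the same library, Rps27 stood 1.51 to 1.81 higher on the log2 scale in the 3 WT libraries, 2.27 to 2.50 in those 3 Lf-/- libraries and 1.57 in Lf-/- pre-pro-B replicate 2. The fitted difference over both stages was 0.37 ± 0.32 (limma adjusted p = 0.72), and the pro-B difference was 0.70.

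Its copy and its paralog differed in how they followed it. Rps27rt was at 145 and 97.7 FPKM (WT) against 169 and 68.4 (Lf-/-) at the pre-pro-B stage and at 103 against 179 and 301 at the pro-B stage, that is 20.3 to 40.6% of Rps27. Since the coding sequences are identical, only the sum of both rows has a firm meaning over that stretch. The sum stood 1.82 to 2.22 above the median short canonical gene in WT libraries, 2.76 to 2.86 in the same 3 Lf-/- libraries and 1.84 in Lf-/- pre-pro-B replicate 2. Rps27l was at 281 and 236 FPKM against 215 and 209, and at 182 against 208 and 351, and its fitted difference in pre-pro-B cells was -0.28 ± 0.40 (limma adjusted p = 0.95).

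The other pairs fell into paralogs with levels of their own and copies that tracked a parent. Rps3a2 was 9.50 to 11.1% and Rps3a3 2.05 to 2.63% of Rps3a1 in every library, although Rps3a1 itself ranged from 238 to 530 FPKM. Rpl37rt was 16.0 to 21.4% of Rpl37 and Rpl6l 14.3 to 19.4% of Rpl6. Rps4l, the less similar copy, ranged from 7.13 to 15.3% of Rps4x. Rpl36al exceeded Rpl36a by 2.67 to 3.31-fold in 6 libraries and by 1.42-fold in Lf-/- pre-pro-B replicate 2. Rpl22l1 exceeded Rpl22 in every library, by 1.19 to 2.14-fold. Rpl7l1, a paralog of Rpl7 linked to ribosome assembly, was at 20.4 to 35.5 FPKM beside 62.0 to 149 for Rpl7. Rpl39l, a paralog of Rpl39 known from male germ cells, was just outside the level rule at 0 to 1.18 FPKM beside 40.7 to 55.5 for Rpl39.

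**Figure D4:**
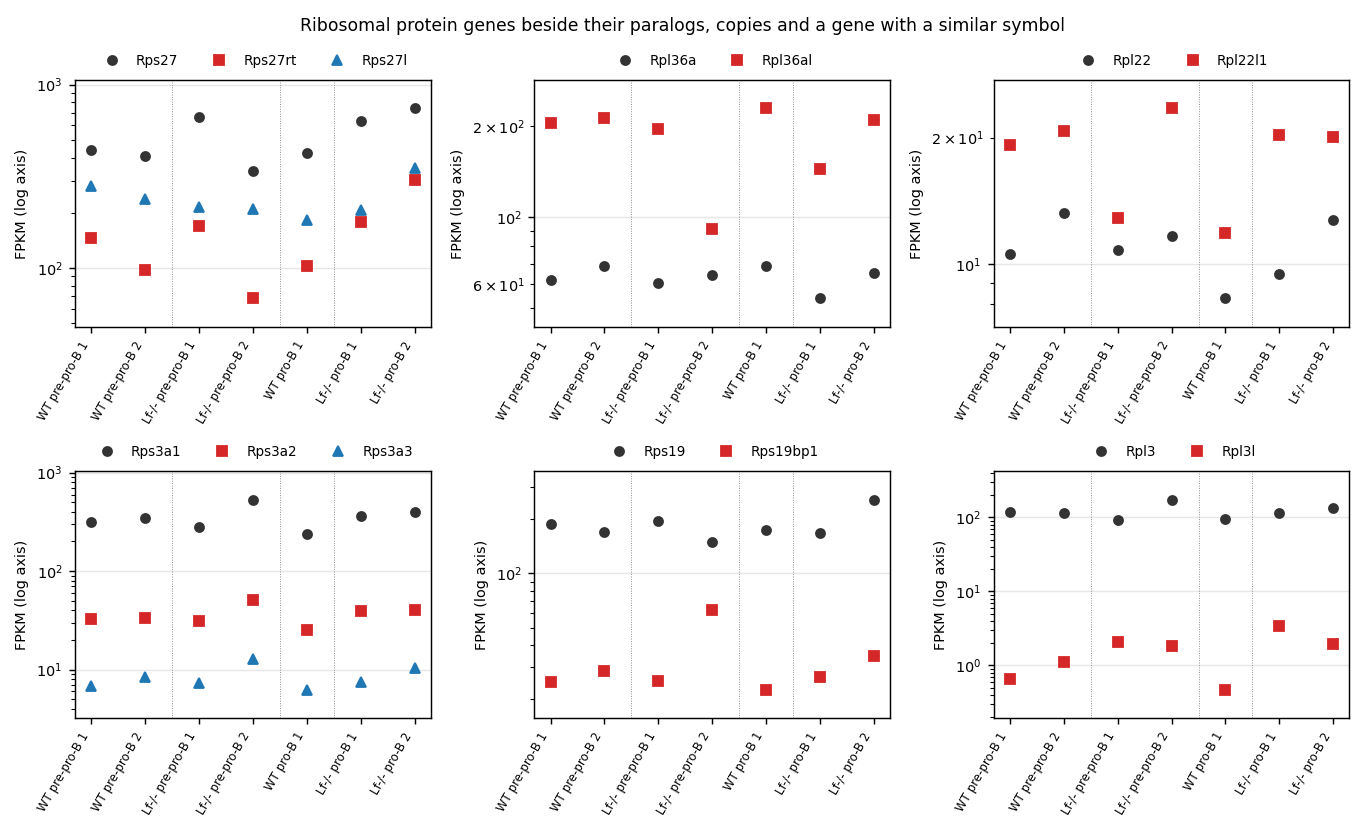
FPKM (log axis) of 6 sets of related symbols in the 7 libraries, with dotted lines between groups and 1 point per library. Rps3a2 and Rps3a3 keep a near constant distance from Rps3a1, Rps27rt moves with Rps27 between 20.3 and 40.6% of it, and Rpl36al drops toward Rpl36a in Lf-/- pre-pro-B replicate 2.

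The rows left out as -ps pseudogenes also bear on how canonical levels read. At least 1 such row carried the symbol of 54 of the 72 canonical genes. Summed over libraries, they exceeded the canonical gene for 11, led by Rpl35a (4.21 times, 141 against 33.4 FPKM on average) and Rpl36a (3.48 times). For 34 canonical genes they came to less than 0.1 of the gene or were lacking. All -ps rows together took 0.389 to 0.612% of the summed FPKM.

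Genes that work with the ribosome, from lists written with earlier results of these data known, were set beside the members. Of 7 cytosolic ribosomal protein genes outside the symbol rule, such as Rplp0 of the stalk and Fau, 0 had an adjusted p under 0.05 by limma in pre-pro-B cells, with a median of -0.30. Without Lf-/- pre-pro-B replicate 2 it was 0.0046, where all genes had a median of -0.10 with 59.2% of them lower. Translation factors with TOP messages, such as Eef1a1 and Eef2, had a median of 0.30 at the earlier stage, with 12 of 15 higher in Lf-/- cells (52.0% of all genes were), and of 0.59 at the later one, with 15 of 15 higher (87.0% of all genes were). Without Lf-/- pre-pro-B replicate 2 their median at the earlier stage was -0.24 with 9 of 15 lower. That share was near the 59.2% of all genes, whose median was -0.10. Ribosome assembly genes had a median of -0.48 in pre-pro-B cells, with 16 of 22 lower (48.0% of all genes were), and of 0.52 in pro-B cells. Of these 22, 6 were listed at 0 in Lf-/- pre-pro-B replicate 2, while 0 were in any other library. Leaving that replicate out, their median was -0.11 with 14 of 22 lower, near the -0.10 and 59.2% of all genes. Mitochondrial ribosomal protein genes, which serve the separate ribosome of that organelle, had medians of 0.06 and 0.55 over 78 genes, beside 0.03 and 0.48 for all genes, and the first was -0.21 without that library. At the pre-pro-B stage these lists held 0 genes with an adjusted or unadjusted p under 0.05 by limma, where 0% and 2.92% of all genes had one. For pro-B cells the 2-fold count was 1 of 15 translation factors, 0 of 22 assembly genes and 5 of 78 mitochondrial genes, all higher, where 12.4% of all genes were.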

How the data were processed

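Pre-pro-B and pro-B cells of WT and Lf-/- mice were sorted and their RNA sequenced on a NovaSeq instrument. The authors deposited 1 table per library with 1 FPKM value per gene. The unit was read from the values, since it is not named in the sources used here. The submitters' processing notes name TopHat, Cufflinks, HTSeq, DESeq and GRCm38 without roles, and strand use and handling of reads with several matches were not given, so near-identical copies may share reads. Each table held 1 library and 0 columns of other samples.

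Identifiers were matched to GENCODE M21 (52403 of 52550). Values were analysed as log2(FPKM + 1), on which changes of low genes are understated. Genes at 1 FPKM or more in at least 2 of the libraries compared were fitted with limma 3.58.1 in R 4.3.3, using a trend of variance on level and Benjamini-Hochberg adjustment over all of them. The pro-B comparison had 1 WT library and used a 2-fold count. The fit was tested on simulated data: with 200 genes changed by 2 on the log2 scale, the pre-pro-B comparison gave 0 adjusted calls, 76.5% unadjusted calls and 97.5% correct directions, and the comparison over both stages gave 99 adjusted calls. Python 3.11.15 was used for the rest.

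Depth was inferred from the steps of low values in genes with 1 transcript of at least 1000 bases. Coding sequences were aligned between members and start windows taken from RefSeq. Members and gene lists were chosen with earlier results of these data known. Named were the paralog pairs, the 5 highest and lowest differences in pre-pro-B cells, the 3 highest and lowest in pro-B cells and between stages, the 3 highest and lowest levels, rows beside the level threshold, any called row, and Rps6, Rpl5, Rpl11, Rps14 and Rps3. 1 gene that the rule names is not reported here. Other names were chosen after values were seen. Alternatives were other pseudocounts, filters, scalings, left-out libraries, a fit over 7 libraries and a replicate block.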

Additional observations from a re-analysis of the deposited data

How the results depend on the processing

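In pre-pro-B cells the members' median stayed within 1 SD between replicates (0.20) of -0.12 under the alternatives run. Without Lf-/- pre-pro-B replicate 1, the library that stands apart is alone in its arm and is assumed to vary like WT. The members' median was then -0.05, beside 0.23 for all genes. In that fit Rpl35 was at -1.45, Rpl36al at -1.18, Rpl38 at -1.15 and Rps19bp1 at 1.20. Over left-out libraries the members' median ranged from -0.17 to -0.05. Over both stages the count of members with an unadjusted p under 0.05 by limma ranged from 0 to 13. It was 0 without Lf-/- pro-B replicate 1, WT pre-pro-B replicate 1 or WT pro-B replicate 1. It was also 0 at 1 FPKM in every library, a filter that drops Rpl3l. The 13 of 84, without Lf-/- pre-pro-B replicate 1, were 9 higher and 4 lower. Of all 10581 genes, 2779 were called higher and 254 lower in that fit. Between stages the count ranged from 0 to 7. The 7 of 84, without the same library, were 3 higher and 4 lower, where 295 of 10581 genes were called higher and 1468 lower. Both were smaller shares than over all genes. In the interaction test the members' median ranged from 0.16 to 0.49 over left-out libraries. Over both stages and between stages, no left-out library raised the members' adjusted count above 0.

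Scaling moved the medians. With median-ratio scaling they were -0.27 in pre-pro-B cells (71 of 84 lower, against 56) and -0.42 in pro-B cells. They were -0.34 over both stages and -0.15 in the interaction. The unscaled interaction median was 0.34 with 75 of 84 positive, below the 0.45 of all genes, of which 77.1% were positive. The sign of the members' median therefore turned, while the median of all genes was 0.06 after this scaling. Quantile normalization gave -0.21 in pro-B cells, -0.045 in the interaction, again a turn of sign, and 3 members with an unadjusted p under 0.05 between stages. Rescaling without the neutrophil granule list gave -0.071 in pro-B cells and 0.22 between stages. The pro-B count of members 2-fold apart was 4 with median-ratio scaling, 0 with quantile normalization, 1 after rescaling without the granule list, 1 at 1 FPKM in every library, and 1 to 2 over left-out libraries (1 without Lf-/- pro-B replicate 2). The lowest and highest share of summed FPKM were 2.64 and 4.13% without the granule list in the denominator, and 2.13 and 2.99% with pseudogene rows and Rpl29 added. The causes were not tested.

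In pre-pro-B cells the sign turned for 7 named genes when 1 library was left out, 6 of them (all but Rps27) without Lf-/- pre-pro-B replicate 2, and their differences ranged from -0.070 to 1.20 for Rps19bp1, -0.033 to 0.70 for Rps3a3, -0.071 to 0.62 for Rps3a2, -1.45 to 0.18 for Rpl35, -1.15 to 0.014 for Rpl38, -0.34 to 0.64 for Rps27 (negative without Lf-/- pre-pro-B replicate 1) and -0.79 to 0.50 for Rps27rt. For Rps27rt it was also positive, at 0.14, without WT pre-pro-B replicate 1.

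The labels repeat the replicate numbers of a genotype at both stages, and whether these are the same mice was not given. Apart from the replicate block, the fits over both stages treated all libraries as independent. Same-numbered pre-pro-B samples did not deviate together (r = 0.04 over 10793 genes), nor did Lf-/- pre-pro-B and pro-B replicate 1 (-0.01). The WT samples could not be checked across stages, since a single WT pro-B library has no deviation from its group mean. With the replicate block, 0 members had an adjusted p under 0.05 in any comparison, and 65 genes did overall in pre-pro-B cells. The members' median was -0.12 in pre-pro-B cells, -0.02 over both stages and 0.01 between stages. The depth limits Rpl3l and other rows near 1 FPKM most.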

Other observations

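A few -ps rows, chosen as the most variable after their values were seen, differed widely between libraries. Rps2-ps10, a pseudogene row of Rps2, was at 177 and 19.7 FPKM (WT) against 19.7 and 28.6 (Lf-/-) at the pre-pro-B stage, and at 148 against 27.8 and 22.3 at the pro-B stage. Rps2-ps13 was at 83.8 and 8.03 FPKM against 9.26 and 12.6, and at 63.0 against 11.1 and 9.94. Both were high in the libraries labelled WT replicate 1 and low in WT pre-pro-B replicate 2, so the genotypes overlapped, while Rps2 itself was at 175 and 225 FPKM against 159 and 329, and at 148 against 183 and 247. Rps19-ps6 was at 109 to 211 FPKM in 6 libraries and at 400.1 in Lf-/- pro-B replicate 2, in which Rps19 was at 256 FPKM against 150.1 to 195 elsewhere.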
